A study of Mus musculus with 12 samples.

Results

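The level that each gene reached after 6 h of interferon beta (IFNβ) was compared between mouse embryonic fibroblasts (MEFs) that lack the kinases Ulk1 and Ulk2 (double knockout, DKO) and wild-type (WT) MEFs. The comparison took in every autosomal gene detected on at least 3 of the 6 treated arrays, with a detection p-value under 0.01, which was 8048 of 8898 genes tested. Total RNA was hybridised to 12 Illumina bead arrays, 3 in each of 4 groups. The treated groups were Ulk1/2+/+ and Ulk1/2-/- cells given mouse IFNβ at 2500 IU/ml, and the other 6 arrays held untreated cells of the same genotypes. All cells were labelled as embryonic fibroblasts of C57BL/6J, an inbred mouse strain. The labels do not state that replicates were separate cultures or embryos, so the p-values reflect the spread among these arrays alone, which may be technical, and 3 arrays a group limit the precision of every value. Levels are log2 values after background correction and quantile normalization, and differences are DKO minus WT on that scale. The test was a limma model of the 12 arrays, and a gene passed if its p, adjusted over the 8898 genes by the Benjamini-Hochberg method, was under 0.05. The study's title asks what part ULK1 plays in type I interferon signalling.

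Type I interferons bind a receptor pair on the cell surface, and Janus kinases attached to it pass the signal on. A transcription factor complex that holds IRF9 then enters the nucleus and switches on interferon-stimulated genes, whose products block viral entry and copying, sense foreign nucleic acids and display peptides to T cells. ULK1 and ULK2 are serine/threonine kinases best known for starting autophagy, the delivery of cell contents to lysosomes.

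The complex that holds IRF9 binds the interferon-stimulated response element (ISRE), whose core was taken here as 2 copies of GAAA with any 2 bases between them (copies of TTTC on the other strand). The promoters below belong to called antiviral effectors and sensors with a promoter in the RefSeq table. They are those of the 2 genes with the largest higher differences in treated DKO cells and of 3 genes with lower levels. The 3 are examples and not the largest lower differences. Of the RNA and DNA sensors, 2 were at least 2-fold lower, and only Nod1 of these is shown. Each window holds 300 bases of the build GRCm38.p6 around the start of a gene, written 5′ to 3′ along the gene's strand, with ISRE cores in capitals.
Nod1, chr6:54972563-54972862, minus strand: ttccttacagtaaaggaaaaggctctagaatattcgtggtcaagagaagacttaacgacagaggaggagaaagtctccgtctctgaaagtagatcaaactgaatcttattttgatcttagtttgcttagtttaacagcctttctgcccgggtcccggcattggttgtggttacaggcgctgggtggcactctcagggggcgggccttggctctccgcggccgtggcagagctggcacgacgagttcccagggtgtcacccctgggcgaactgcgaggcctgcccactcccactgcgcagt
Ch25h, chr19:34475099-34475398, minus strand: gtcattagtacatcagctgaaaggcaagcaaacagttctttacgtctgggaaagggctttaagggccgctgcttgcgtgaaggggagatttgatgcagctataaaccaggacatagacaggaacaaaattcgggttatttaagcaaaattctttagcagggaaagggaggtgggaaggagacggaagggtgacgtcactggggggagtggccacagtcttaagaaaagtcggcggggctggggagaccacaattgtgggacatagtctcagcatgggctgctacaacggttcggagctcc
Ifi47, chr11:49076337-49076636, plus strand: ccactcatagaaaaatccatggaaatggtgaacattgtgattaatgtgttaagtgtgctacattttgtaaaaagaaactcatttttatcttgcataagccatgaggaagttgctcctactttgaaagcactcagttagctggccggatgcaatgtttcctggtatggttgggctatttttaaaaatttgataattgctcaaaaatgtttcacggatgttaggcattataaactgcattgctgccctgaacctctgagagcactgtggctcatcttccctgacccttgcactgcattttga
Ifi205, chr1:174031706-174032005, minus strand: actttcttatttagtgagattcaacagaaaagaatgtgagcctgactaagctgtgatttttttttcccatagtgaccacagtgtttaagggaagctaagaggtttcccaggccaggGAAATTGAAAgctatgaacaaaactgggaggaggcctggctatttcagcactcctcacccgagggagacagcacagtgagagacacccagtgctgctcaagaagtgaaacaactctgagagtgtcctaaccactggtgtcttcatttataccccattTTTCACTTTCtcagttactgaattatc
Ifi211, chr1:173912997-173913296, minus strand: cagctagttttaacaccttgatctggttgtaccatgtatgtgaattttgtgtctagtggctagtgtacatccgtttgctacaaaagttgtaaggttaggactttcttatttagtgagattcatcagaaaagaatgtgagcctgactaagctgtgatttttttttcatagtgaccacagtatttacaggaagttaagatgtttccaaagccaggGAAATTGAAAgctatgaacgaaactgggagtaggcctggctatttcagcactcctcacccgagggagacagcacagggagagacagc
Nod1, which senses bacterial peptidoglycan, Ch25h, which makes the antiviral sterol 25-hydroxycholesterol, and the GTPase Ifi47 were lower in treated DKO cells, and their windows held 0 cores. The table holds 2 promoters of Nod1, of which 1 is shown. Ifi205 and Ifi211, of the Ifi200 family of DNA-binding proteins, were higher. The Ifi205 window held 2 cores, and the Ifi211 window held 1, whose first base lay 37 bases before the start. The core was found in 1131 of 32851 promoters of the table (3.44%) and in 260 of the 6601 genes compared here that have a promoter in it (3.94%). Among interferon-list genes with a promoter it was found in 44 of 110 (40.0%), which divide into 9 of 16 genes higher in treated DKO cells, 5 of 24 lower and 30 of 70 that did not pass. The 9 are not separate cases, since they hold the relatives Ifi205, Ifi207, Ifi211 and Ifi213 and the relatives Trim30a and Trim30d. The Ifi205 and Ifi211 windows above share the stretch around a core. Both strands were searched, and a match is a match of letters, not a bound site.

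The targeted genes were read first. Ulk1 was at 6.45, 6.70 and 6.37 on the treated WT arrays and at 4.64, 4.50 and 4.41 on the treated DKO arrays, none of which detected it. It was at least 2.94-fold lower in treated DKO cells (difference -1.99 ± 0.12 SE, limma adjusted p = 1.41e-08). Ulk2 was at 5.84, 6.11 and 5.51 in treated WT and at 4.25, 4.33 and 4.20 in treated DKO cells, at least 1.83-fold lower (-1.56 ± 0.14, adjusted p = 1.14e-06). The groups did not overlap for either gene, and the second probe of each gave the same direction (-1.72 and -0.82). Here and below, "at least" marks a gene that no array of the dimmer group detected, and the fold then sets the mean of the brighter group against a floor, which on each dim array is the lowest signal well above background or, if higher, the probe's own signal. The log2 differences, responses and changes of such genes rest on signals not above background and are not exact. Among the values given below without a bound, 1 of 3 arrays of the dimmer group detected Adm, Rspo3, Ctsh, Dlk1, Gsdme, Lama2, Meis2 and Stat5a, and 2 of 3 detected Atf3, Atg3, Gata3, Grem1, Mapk12, Mmp13, Mylk and Pdgfrl, so their sizes are uncertain. Adjusted p-values are limma's throughout, and errors after ± are standard errors with n = 3 arrays a group.

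The cultures differed in more than Ulk1 and Ulk2. All 4 probes of Xist, the RNA that coats an inactive X chromosome, were detected on 0 of 6 WT and 6 of 6 DKO arrays, while a probe of the Y-linked gene Eif2s3y was detected on 6 of 6 WT and 0 of 6 DKO arrays. Genotype therefore cannot be told apart from sex or culture in any result below, and genes of the sex chromosomes were left out. The arrays also fell into 2 sets by median intensity, 86.5 to 87.9 in 6 arrays and 97.5 to 99.7 in the other 6. Treated WT replicates 1 and 2 and treated DKO replicate 1 lay in the lower set. Treated WT replicate 3 and treated DKO replicates 2 and 3 lay in the higher set, so set and genotype were not balanced. Between 30.3% and 33.7% of 45281 probes were detected on an array. Of 19 fibroblast markers on the array, 17 were detected on all 3 treated WT arrays and 14 on all 3 treated DKO arrays, with Lum and Fap undetected in both groups and Pdgfra undetected in treated DKO cells.

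After IFNβ, 2603 of 8048 genes (32.3%) differed between the genotypes. Of these, 1209 were higher in DKO cells (15%) and 1394 were lower (17.3%), and a difference of at least 2-fold was found for 288 higher (3.58%) and 257 lower genes (3.19%). The treated groups did not overlap for 3543 genes (44%). The median difference over all 8048 genes was -0.03. Scaling the arrays by their medians in place of quantiles gave 839 higher and 1537 lower genes, so the split of calls depends on the scaling. With the background set as a block 3305 genes passed, and within the lower and the higher set alone 1513 and 1929 passed. No treated WT array detected 104 of the genes and no treated DKO array detected 145, and these could enter only through the group that expressed them. A lower level in bulk RNA can come from fewer cells that make a transcript or from less of it in each cell, which these arrays cannot tell apart.

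Much of the genotype difference was present on the untreated arrays too, which are separate samples. Without IFNβ, 2745 of the same genes differed (34.1%), 1245 higher in DKO cells (15.5%) and 1500 lower (18.6%). Of the 1209 genes higher after IFNβ, 898 were also higher without it, which is 74.3% of the first list and 72.1% of the second. Of the 1394 lower genes, 990 were also lower without it, 71% of the first list and 66% of the second. Another 309 higher and 397 lower genes were not called without IFNβ. In the main fit a change between the untreated and treated differences was called for 8 and 15 of these. Such a change was called for 87 genes in all (1.08%), 64 towards a lower level in DKO cells (0.795%) and 23 towards a higher one (0.286%). The main fit takes no account of the pairing of arrays that share a genotype and number. With a random block for that pairing, the count was 291, of which 190 went towards lower and 101 towards higher. A change that did not pass below is one that did not pass in the main fit. Within the lower and higher background sets alone it was 27 and 54.

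**Figure D1:**
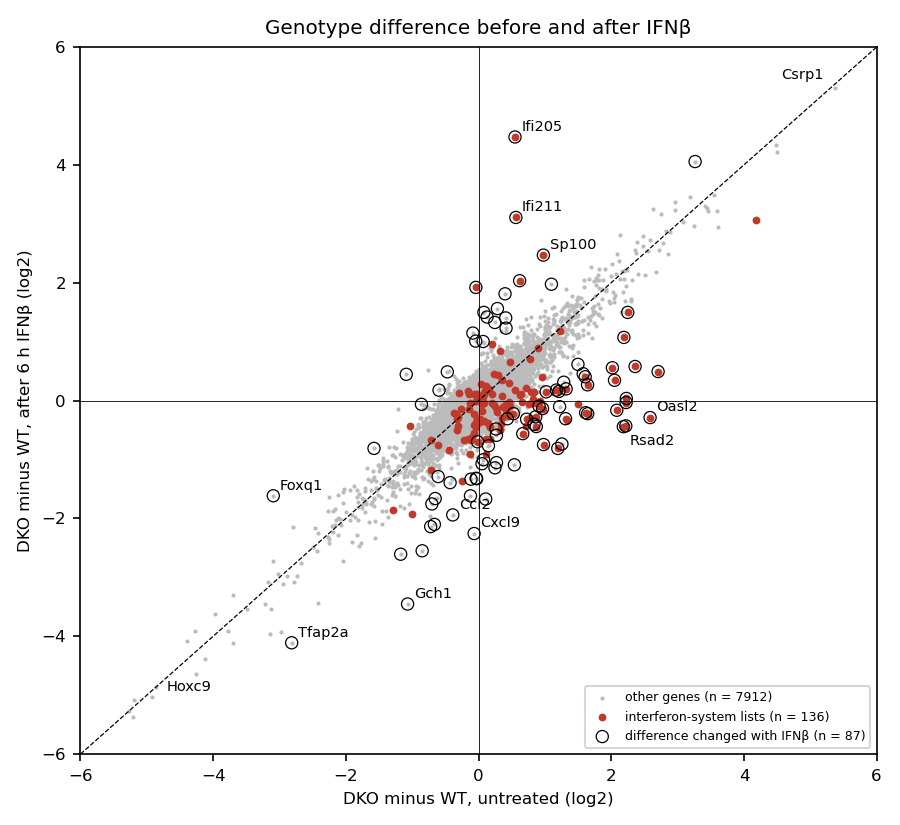
Each point is 1 of 8048 autosomal genes, with the DKO minus WT difference (log2) of untreated cells on the x axis and of cells after 6 h of IFNβ on the y axis. Red points are the 136 genes of the interferon lists, rings mark the 87 genes whose difference changed with IFNβ, and the dashed line marks equal differences. Csrp1 and Hoxc9 lie on that line, while Oasl2 and Rsad2 lie near 0 on the y axis and above 2 on the x axis.

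The interferon lists together held 170 genes on the array, of which 136 were among the genes compared. After IFNβ, 20 of them were higher in DKO cells, 30 were lower and 86 did not pass, so 36.8% passed against 32.3% of all genes, and their median difference was -0.08. Without IFNβ the same 136 genes held 62 higher and 9 lower members, with a median of 0.32. The change between the differences was called towards lower for 31 of the 136 and towards higher for 5, with a median of -0.48 against 0.01 over all genes. Of the 31, 22 were higher in untreated DKO cells and did not pass after IFNβ, 5 were higher in both states and 3 turned from higher to lower. The treated and untreated comparisons share no arrays, but the change is computed from both.

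For the 5 interferon-list genes described next, the genotype difference changed with IFNβ, and the difference left after it did not pass. Rsad2, which encodes viperin, an enzyme that makes a chain-terminating nucleotide, was at 12.14, 12.19 and 11.91 on the treated WT arrays and at 11.84, 11.62 and 11.46 on the treated DKO arrays. Those groups did not overlap, but the difference of -0.44 ± 0.24 did not pass (adjusted p = 0.183). It passed as lower when the treated arrays were fitted alone (adjusted p = 0.0345), and without background correction and in the authors' deposited table (both 0.0261). In untreated cells Rsad2 was higher in DKO by 2.18 ± 0.24 (adjusted p = 8.9e-06), and the change of -2.63 was called (adjusted p = 0.00109). Oasl2, a relative of the oligoadenylate synthetases, was at 11.86, 11.90 and 12.00 in treated WT and at 11.44, 11.65 and 11.81 in treated DKO cells. These groups lay just apart, and the difference of -0.29 ± 0.27 did not pass (adjusted p = 0.458), against 2.59 ± 0.27 in untreated cells. Usp18, which removes ISG15 from proteins and restrains the interferon receptor, was at 13.20, 13.21 and 13.16 in treated WT and at 13.14, 13.11 and 13.21 in treated DKO cells. Its groups overlapped, with a difference of -0.03 ± 0.22 (adjusted p = 0.93).

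Ifit3, which binds foreign RNA together with its relatives, was at 13.52, 13.63 and 13.45 in treated WT and at 13.20, 13.08 and 13.02 in treated DKO cells. The groups did not overlap, and the difference of -0.43 ± 0.27 did not pass (adjusted p = 0.253), but it passed when the treated arrays were fitted alone (adjusted p = 0.0173). Cmpk2, a nucleotide kinase of mitochondria, was at 10.71, 10.54 and 10.65 against 10.29, 10.70 and 10.41. Its groups overlapped (-0.17 ± 0.17, adjusted p = 0.509). IFNβ raised Rsad2 by 6.78 in WT and by 4.15 in DKO cells, Ifit3 by 6.74 and 4.09, and Oasl2 by 5.00 and 2.13. For each of these 5 genes the change of the genotype difference was called, from -2.87 for Oasl2 to -2.25 for Cmpk2. Other probes of Usp18, Ifit3 and Oasl2 gave called changes of -1.95, -1.84 and -1.23, and another Oasl2 probe gave -0.53, which did not pass (adjusted p = 0.285).

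Of 11 viperin, Ifit and Ifi44 effectors, 1 was higher and 3 were lower in treated DKO cells (36.4% called, against 32.3% of all genes), where 7 had been higher and 1 lower without IFNβ, against 15.5% and 18.6% of all genes. The higher one was Ifi27l2a, a small interferon-induced membrane protein with near-identical copies, which makes its probe uncertain. It was at 8.50, 7.51 and 8.40 in treated WT and at 10.98, 11.48 and 11.14 in treated DKO cells, 8.36-fold higher (3.06 ± 0.32, adjusted p = 5.87e-06). The groups were well apart, and the untreated difference was 4.17. Ifi47 was at 10.60, 10.33 and 10.84 in treated WT and at 9.57, 10.08 and 9.88 in treated DKO cells, 1.68-fold lower (adjusted p = 0.00515). The arrays of the 2 groups lay apart, it had been higher in untreated DKO cells by 0.98, and the change of -1.73 was called (adjusted p = 0.00217). Ifi30, a thiol reductase of antigen processing, and Ifi27 were also lower, with differences of -0.67 and -0.42. Ifi27 lies on chromosome 12, whose genes leaned lower as a whole, and its call was lost when each chromosome was centred on every array (-0.22, adjusted p = 0.0903) and in the lower background set alone (adjusted p = 0.176).

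Of 15 oligoadenylate synthetases and other enzymes that act on nucleic acids, 4 were higher, 1 was lower and 10 did not pass (33.3% called, near the 32.3% of all genes), against 9 higher and 1 lower without IFNβ. Under median scaling 0 of the 15 passed as higher in this limma fit and 2 passed as lower, so the direction of the list depends on the scaling. Isg20, an RNA exonuclease, was at 8.16, 7.84 and 8.32 in treated WT and at 8.46, 9.02 and 8.95 in treated DKO cells (0.71 ± 0.16, adjusted p = 0.00329), a call lost under median scaling (adjusted p = 0.0567). Its groups did not overlap. Oas1g, Oasl1 and the RNA-editing enzyme Adar differed by 0.58, 0.49 and 0.40, calls lost on leaving out 1 treated array, with adjusted p = 0.0705 without WT replicate 2 for Oas1g, 0.131 without WT replicate 1 for Oasl1 and 0.0566 without DKO replicate 2 for Adar. Other probes did not pass and mostly differed the other way, since all 3 of Oas1g (-0.16, -0.11 and -0.16) and 3 of 4 of Adar (-0.05, -0.32 and -0.25) lay below 0, and the mean over probes was 0.04 for Oas1g and 0.007 for Adar. Pnpt1, a mitochondrial RNA nuclease, was lower (-0.50 ± 0.12, adjusted p = 0.00503).

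Of 5 genes of ISG15 conjugation, the attachment of a ubiquitin-like tag, 0 were higher by limma after IFNβ (0 also at an unadjusted p under 0.05) and 1 was lower, against 4 higher without it. The share called after IFNβ was 20%, below the 32.3% of all genes. The lower one was the ligase Trim25, at 10.64, 10.65 and 10.39 against 9.99, 9.89 and 9.84 (-0.66 ± 0.14, adjusted p = 0.00249). All 3 DKO arrays lay below the WT arrays, but a second probe gave -0.13, which did not pass. Of 12 virus blockers, such as the Mx GTPases and the Ifitm proteins, 1 was higher and 2 were lower. That is 25% called, below the 32.3% of all genes, and 10 had been higher without IFNβ. Ch25h was at 6.48, 6.69 and 6.42 in treated WT and at 5.40, 5.40 and 5.23 in treated DKO cells, 2.27-fold lower (adjusted p = 0.000135). Mx1, a GTPase that traps viral nucleocapsids, was at 7.47, 7.17 and 7.81 against 6.68, 6.94 and 6.86 (-0.66 ± 0.14, adjusted p = 0.00249). Neither gene's groups overlapped. Lgals9, a sugar-binding protein, was higher by 0.56, a call lost under median scaling and on leaving out 1 array (adjusted p = 0.1 without DKO replicate 3).

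**Figure D2:**
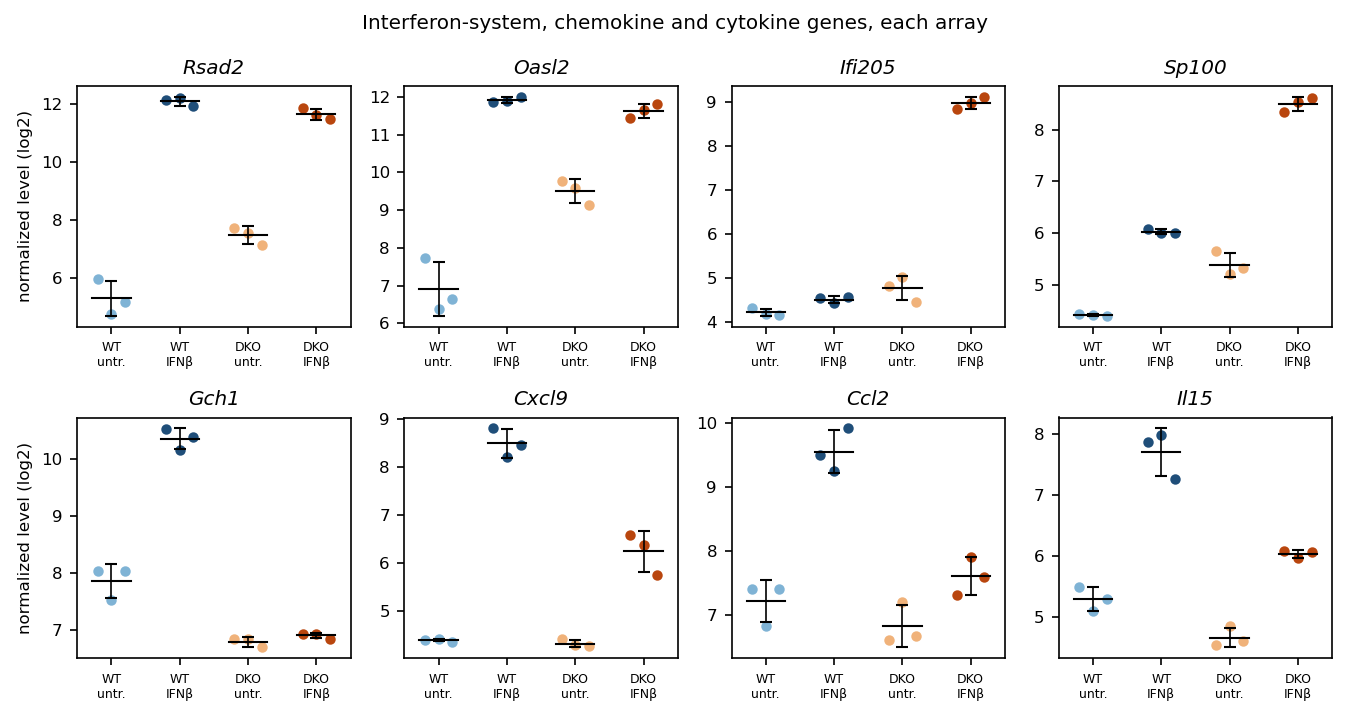
Normalized log2 levels of 8 genes on each of 12 arrays, with 3 points, the mean and the SD for each group of untreated (untr.) and IFNβ-treated WT and DKO cells. Rsad2 and Oasl2 are over 2 units higher in DKO than in WT cells without treatment and near the WT level after IFNβ. Ifi205 is high on the 3 treated DKO arrays only, and Gch1, Cxcl9, Ccl2 and Il15 are lower on the treated DKO than on the treated WT arrays.

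The list of RNA and DNA sensors also held other innate immune genes, such as Nod1 and Myd88. Of its 16 genes compared, 4 were higher and 5 lower in treated DKO cells (56.2% called, against 32.3% of all genes). The higher ones were Ifi205, Ifi207, Ifi211 and Ifi213, all of the Ifi200 family on chromosome 1. Ifi205 was at 4.54, 4.43 and 4.57 on the treated WT arrays, none of which detected it, and at 8.85, 8.99 and 9.12 on the treated DKO arrays. It was at least 16.5-fold higher there (difference 4.47 ± 0.13, adjusted p = 1.37e-11). Ifi211 was likewise undetected in treated WT cells (4.20, 4.37 and 4.35) and at 7.39, 7.62 and 7.22 in treated DKO cells, at least 5.53-fold higher. The groups of both genes were far apart. Ifi207 was at 6.33, 6.28 and 6.14 against 8.37, 8.17 and 8.32 (2.03 ± 0.12, adjusted p = 1.41e-08), and Ifi213 was at 5.57, 5.79 and 5.49 against 7.80, 7.59 and 7.22 (1.92 ± 0.14, adjusted p = 1.53e-07). These groups did not overlap either.

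No WT array detected Ifi205 or Ifi211 with or without IFNβ, and 1 and 2 of 3 untreated DKO arrays did, so both genes entered through the treated DKO arrays and their responses and changes are read against signals not above background. The response to IFNβ was 4.22 in DKO and 0.29 in WT cells for Ifi205, and the same values were 2.55 and 0.01 for Ifi211, 2.18 and 0.22 for Ifi213, and 3.23 and 1.81 for Ifi207. The change of the genotype difference was called for all 4, at 3.92 for Ifi205, 2.55 for Ifi211, 1.96 for Ifi213 and 1.41 for Ifi207. The genes of this family are near-identical copies, so a probe may read more than 1 of them, and other Ifi205 probes gave smaller differences of 2.49 and 0.81. Nod1 had the largest lower difference of this list, at 8.08, 7.78 and 7.47 in treated WT and 6.22, 5.88 and 5.65 in treated DKO cells, 3.63-fold lower (adjusted p = 9.52e-06). All 3 DKO arrays lay below the WT arrays, and the untreated difference was -1.30.

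Among 17 PARPs, TRIMs and nuclear body genes, 3 were higher and 1 was lower (23.5% called, below the 32.3% of all genes). Sp100, a nuclear body protein also on chromosome 1, was at 6.07, 6.00 and 6.01 in treated WT and at 8.34, 8.53 and 8.61 in treated DKO cells, 5.53-fold higher (adjusted p = 2.07e-09). The groups were well apart, the untreated difference was 0.98, and the change of 1.49 was called (adjusted p = 0.00033). Trim30a, a negative regulator of Toll-like receptor signals in mice, was at 7.50, 7.72 and 7.60 against 9.00, 9.28 and 9.04, 2.82-fold higher, and its relative Trim30d was 1.96-fold higher. The Trim30a groups did not overlap. Both genes lie on chromosome 7 in a cluster of similar copies. Phf11d, a PHD-finger gene that IFNβ raised by 5.28 in WT cells, was at 11.39, 11.29 and 11.51 in treated WT and 10.38, 10.66 and 10.44 in treated DKO cells, 1.87-fold lower (adjusted p = 0.00621).

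Of 14 guanylate-binding proteins and immunity-related GTPases, which attack the vacuoles of pathogens, 3 were higher and 5 lower after IFNβ. That is 57.1% called, against 32.3% of all genes, and 8 had been higher without IFNβ. Gbp5 was at 6.51, 6.54 and 6.35 in treated WT and at 5.71, 5.69 and 5.29 in treated DKO cells, 1.87-fold lower (adjusted p = 6.49e-05). The groups did not overlap. Igtp was at 11.83, 11.57 and 11.47 against 11.03, 10.72 and 10.68 and turned from an untreated difference of 1.19 to -0.81, but the treated call was lost on leaving out 1 array (adjusted p = 0.118 without WT replicate 1), as was the called change of -2.01 (0.069 without WT replicate 1). Gvin1, a very large GTPase, was at 10.69, 10.55 and 11.03 against 11.71, 11.96 and 11.82, 2.10-fold higher, and Tgtp1 was 1.79-fold higher. The Gvin1 groups did not overlap. Both genes have near-identical copies and are uncertain, and a second Gvin1 probe gave a smaller difference of 0.485.

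MHC class I genes and the machinery that loads them with peptides leaned towards lower. Of 22, 8 were lower in treated DKO cells and 0 higher by limma (0 also at an unadjusted p under 0.05), with a median of -0.25, where untreated cells had 7 higher and 1 lower and a median of 0.24. The share called after IFNβ was 36.4%, near the 32.3% of all genes, of which 17.3% were lower and 15% higher. H2-Q6, a class Ib heavy chain, was at 7.77, 7.31 and 7.94 in treated WT and at 5.76, 5.94 and 5.55 in treated DKO cells, 3.80-fold lower (adjusted p = 3.25e-06). H2-T22 was at 7.07, 6.97 and 7.14 against 6.53, 6.36 and 6.42 (-0.62 ± 0.15, adjusted p = 0.00478). The groups of both did not overlap. H2-Q7 differed by -0.84 and the immunoproteasome subunit Psmb9 by -0.65, calls lost on leaving out 1 array (adjusted p = 0.0503 without DKO replicate 1 for H2-Q7 and 0.0789 without WT replicate 1 for Psmb9). The H2-Q and H2-T genes are near-identical copies, and probes of H2-T10 disagreed (-0.67 and -0.97 against 3.88), so single members are uncertain.

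Of 25 receptors, Janus kinases, STATs, IRFs and feedback inhibitors, 4 were higher, 5 lower and 16 did not pass, so 36% passed, near the 32.3% of all genes. Irf1, a transcription factor that interferons induce, was at 11.49, 11.42 and 11.33 in treated WT and at 10.85, 10.70 and 10.68 in treated DKO cells, 1.59-fold lower (adjusted p = 0.00273). Its groups did not overlap, and the untreated difference was -0.11. Stat5a was lower (-0.75), and Ifngr2, a chain of the type II interferon receptor, was higher (0.65), though other probes of both did not pass. Socs2, a feedback inhibitor of cytokine signals, was at 7.47, 7.56 and 7.24 against 8.62, 8.63 and 8.58, 2.28-fold higher, and its relative Cish was 1.85-fold higher. The Socs2 groups did not overlap. The untreated differences were 1.22 for Socs2 and 0.89 for Cish.

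Chemokines and cytokines, which call in and instruct immune cells, were often lower in treated DKO cells. Of 12 chemokines, 8 were lower and 2 higher, and of 13 cytokines and their receptors 8 were lower and 0 higher by limma (0 also at an unadjusted p under 0.05), against 17.3% of all genes that were lower. The chemokine median was -0.71 (-0.59 if bounds stand in for undetected members), and the cytokine median was -0.57. Without IFNβ, 4 chemokines were lower and 3 higher, and 6 cytokines lower. Cxcl9, which attracts T cells, was at 8.81, 8.21 and 8.47 on the treated WT arrays and at 6.59, 6.38 and 5.75 on the treated DKO arrays, 4.78-fold lower (-2.26 ± 0.19, adjusted p = 5.15e-07). The groups were well apart, the untreated difference was -0.07, and the change of -2.19 was called (adjusted p = 0.000592). IFNβ raised Cxcl9 in both genotypes, by 4.12 in WT and 1.93 in DKO cells from untreated signals that no array detected, so neither rise is exact.

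The monocyte attractant Ccl2 was at 9.49, 9.24 and 9.91 in treated WT and at 7.32, 7.91 and 7.59 in treated DKO cells, 3.84-fold lower (adjusted p = 1.15e-05). Ccl7, a related chemokine, was at 10.95, 10.71 and 10.59 against 9.70, 9.69 and 9.45, 2.21-fold lower (adjusted p = 0.000135). Neither gene's groups overlapped. The untreated differences, -0.39 and 0.25, did not pass, and both changes were called, at -1.55 for Ccl2 and -1.39 for Ccl7 (adjusted p = 0.0239 and 0.00726). The change of Ccl2 was lost on leaving out 1 of 4 treated arrays (adjusted p up to 0.0653 without WT replicate 1). The neutrophil chemokine Cxcl1 was 2.65-fold lower, with an untreated difference of -0.72. With each chromosome centred on every array, Cxcl9, Ccl2, Ccl7 and Cxcl1 differed by less (-2.03, -1.78, -0.98 and -1.18) and still passed. The probes of Ccl25, a chemokine of gut and thymus, disagreed (0.88 and -0.51).

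Il15, which sustains natural killer and memory T cells, was at 7.87, 7.98 and 7.26 in treated WT and at 6.09, 5.97 and 6.07 in treated DKO cells, 3.16-fold lower (adjusted p = 4e-06). Its groups did not overlap. The change of -1.03 did not pass (adjusted p = 0.0604), while other probes gave -0.98 and -1.72, which did. Il1rn, the antagonist of the interleukin-1 receptor, was at 9.24, 7.96 and 8.35 in treated WT and undetected in treated DKO cells (4.51, 4.91 and 4.36), at least 11.9-fold lower. Tnfrsf11b, the decoy receptor osteoprotegerin, was at 10.45, 10.62 and 10.28 against 6.75, 6.49 and 6.35, 15.1-fold lower. The groups of both were far apart. Il7, a growth factor of lymphocytes, was 2.83-fold lower and Il11 at least 2.10-fold lower. The untreated differences of Il1rn, Tnfrsf11b, Il7 and Il11 were -2.99, -3.78, -2.02 and -0.76.

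Gch1, the first enzyme in the synthesis of tetrahydrobiopterin, the cofactor of nitric oxide synthases, stayed low in DKO cells after IFNβ. It was at 10.52, 10.15 and 10.38 in treated WT and at 6.92, 6.93 and 6.84 in treated DKO cells, 11.0-fold lower (-3.45 ± 0.14, adjusted p = 3.26e-10). The groups were far apart. The response to IFNβ was 2.49 in WT and 0.11 in DKO cells, and the change of -2.38 was called (adjusted p = 3.9e-05). Another Gch1 probe gave a difference of -1.30 and a change of -0.94, which did not pass (adjusted p = 0.102).

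Of 15 genes of NF-kB, a factor of inflammatory signals, and its targets, 2 were higher and 5 lower. In all 46.7% were called, against 32.3% of all genes. Nfkbia, the inhibitor that NF-kB itself switches on, was at 9.47, 9.80 and 10.05 in treated WT and at 8.03, 8.02 and 8.00 in treated DKO cells, 3.38-fold lower (adjusted p = 1.14e-07). Its groups did not overlap, the untreated difference was -0.70, and the change of -1.05 was called (adjusted p = 0.00643). A second probe gave a change of -0.66 and the mean over probes -0.85, which did not pass (adjusted p = 0.694 and 0.155). The adhesion molecule Vcam1 was 2.33-fold lower and Tnfaip2, a TNF-induced gene, 4.04-fold lower. The brake on NF-kB Tnfaip3, a ubiquitin-editing enzyme, was 2.10-fold higher. Of 5 complement genes 4 were lower and 0 higher by limma (0 also at an unadjusted p under 0.05), led by the complement inhibitor Cd59a, at 7.21, 7.44 and 7.26 against 5.27, 5.16 and 5.37. Its groups were apart, and it was 4.10-fold lower.

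Of 29 genes of p38 and other MAP kinases, AP-1 and the immediate-early response to growth signals, 8 were higher and 3 lower. Their median was 0.17, and 37.9% were called, near the 32.3% of all genes. Dusp6, a phosphatase that switches off ERK kinases, was at 9.39, 9.56 and 9.38 in treated WT and at 10.48, 10.73 and 10.64 in treated DKO cells, 2.26-fold higher (adjusted p = 8.94e-07), and its relative Dusp4 was at least 2.06-fold higher. Other Dusp4 probes gave differences of 1.57 and 0.79. Fosb, an AP-1 subunit, was at 8.51, 8.47 and 8.47 against 9.88, 10.11 and 9.93, 2.81-fold higher (adjusted p = 0.00211). Neither pair of groups overlapped. The untreated difference of Fosb was 0.07, and its change of 1.43 did not pass (adjusted p = 0.221). The stress factor Atf3 was 2.42-fold higher, and Mapk12, a p38 kinase, 2.10-fold lower.

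Of 8 Krueppel-like zinc finger factors, 5 were higher and 1 was lower (75% called, against 32.3% of all genes). Klf2 was at 7.18, 7.09 and 6.82 in treated WT and at 8.63, 8.58 and 8.57 in treated DKO cells, 2.95-fold higher (adjusted p = 1.45e-06). The groups did not overlap. The response of Klf2 to IFNβ was 1.20 in DKO and -0.08 in WT cells, and the change of 1.28 was called (adjusted p = 0.00437). Klf13 was at 6.50, 6.49 and 6.45 against 8.46, 8.34 and 8.31, 3.71-fold higher, and Klf5, Klf7 and Klf6 were higher by 0.83, 0.63 and 0.51. The Klf13 groups did not overlap. Egr2, an immediate-early factor, was at 6.54, 6.56 and 6.28 against 7.31, 6.91 and 6.49 after IFNβ, where the groups overlapped and the difference of 0.45 ± 0.18 did not pass (adjusted p = 0.0777). Its untreated difference was -1.09, and the change of 1.54 was called (adjusted p = 0.00643).

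**Figure D3:**
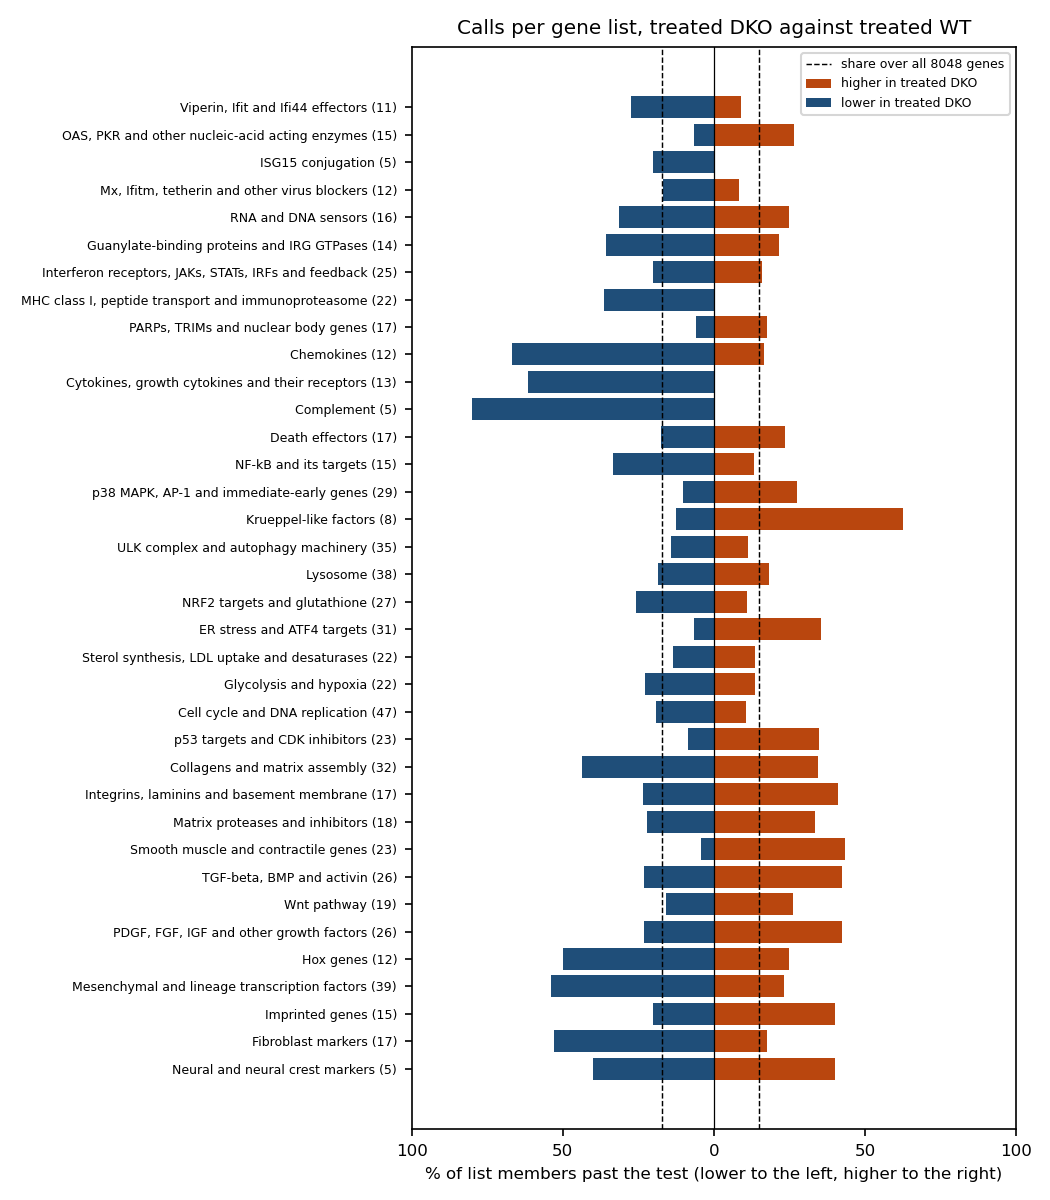
For each gene list with at least 5 compared genes (number in brackets), the bars give the percentage of its members that were higher (right, orange) or lower (left, blue) in treated DKO than in treated WT cells. The dashed lines mark 15% higher and 17.3% lower, the shares over all 8048 genes. The bars of chemokines, cytokines and complement reach far to the left, and that of the Krueppel-like factors far to the right.

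Csrp1, Col4a1 and Col4a2, genes of the contractile apparatus and the matrix, were among the genes farthest apart after IFNβ. Csrp1, a LIM protein of actin bundles, was at 5.90, 5.74 and 6.41 in treated WT and at 11.27, 11.35 and 11.36 in treated DKO cells, 39.7-fold higher (5.31 ± 0.15, adjusted p = 6.79e-12). Col4a1, a chain of basement membrane collagen, was at 7.57, 7.55 and 7.18 against 11.76, 11.60 and 11.59, 18.6-fold higher, and its partner Col4a2 was 20.1-fold higher. The groups of these genes were far apart. Their untreated differences were 5.37 for Csrp1, 4.50 for Col4a1 and 4.48 for Col4a2.

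Of 32 collagens and matrix proteins, 11 were higher and 14 lower in treated DKO cells (78.1% called, against 32.3% of all genes). Col18a1 was 5.01-fold higher, while the growth-factor binders Igfbp5 and Igfbp3 were 5.90-fold and at least 3.30-fold lower. A second Col18a1 probe gave a smaller difference of 1.06. Of 17 integrins, laminins and basement membrane genes, 7 were higher and 4 lower (64.7% called). The laminin receptor Itga3 was at 7.82, 8.11 and 7.67 in treated WT and at 9.91, 9.52 and 9.81 in treated DKO cells, 3.70-fold higher. Its groups did not overlap. The laminin chain Lama5 was 3.31-fold, nidogen 2 (Nid2) 2.81-fold and the fibronectin receptor chain Itga5 2.16-fold higher, and the laminin chain Lama2 was 2.82-fold lower. Of 18 matrix proteases and inhibitors, 6 were higher and 4 lower (55.6% called), among them the collagenase Mmp13 (4.72-fold higher) and Mmp23 (at least 3.49-fold lower).

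Of 23 smooth muscle and contractile genes, 10 were higher and 1 was lower (47.8% called, against 32.3% of all genes). Their median was 0.33. Mylk, the kinase that starts smooth muscle contraction, was at 5.20, 5.16 and 4.72 in treated WT and at 8.89, 8.38 and 7.94 in treated DKO cells, 10.4-fold higher (adjusted p = 2.07e-07). The groups were far apart. The myosin light chain Myl9 was 2.27-fold, Srf, a transcription factor of contractile genes, 1.87-fold and the matricellular protein Ccn2 1.83-fold higher. A second Srf probe gave a smaller difference of 0.44. Acta1, skeletal muscle actin, was undetected on the treated WT arrays and at 7.69, 7.80 and 7.94 in treated DKO cells, at least 7.28-fold higher. Of 17 skeletal muscle markers, 14 were undetected in both treated groups, Myod1 and Des among them, and the summed level of the list ranged from 8.57 to 8.67 in treated WT and from 9.24 to 9.28 in treated DKO cells.

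Growth-factor systems differed in both directions. Of 26 growth factors and receptors, 11 were higher and 6 lower (65.4% called, against 32.3% of all genes). Pdgfra, a receptor that marks fibroblasts, was at 9.41, 8.64 and 8.86 in treated WT cells and was undetected in treated DKO cells (4.34, 4.45 and 4.20), at least 16.2-fold lower. The groups were far apart. Fgf7 was 2.39-fold lower, Pdgfrl, a relative of the PDGF receptor, 6.59-fold higher, and Igf2bp3, an RNA-binding protein of fetal growth, 6.13-fold higher. Other Igf2bp3 probes gave smaller differences, from 0.71 to 2.25. Of 26 genes of TGF-beta, BMP and activin signalling, 11 were higher and 6 lower (65.4% called), but only 5 passed as higher under median scaling. The ligands Tgfb2 and Tgfb3 were 2.25-fold and 2.19-fold higher, and the BMP antagonist Grem1 was 2.71-fold lower. Of 19 Wnt pathway genes, 5 were higher and 3 lower (42.1% called, against 32.3% of all genes). The ligand Wnt10a was at 9.90, 9.57 and 9.96 in treated WT and undetected in treated DKO cells (4.73, 4.87 and 4.56), at least 29.1-fold lower. The groups were far apart, while Rspo3, an amplifier of Wnt signals, was 3.91-fold and the receptor Fzd7 2.57-fold higher.

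Transcription factors that record a cell's place in the body were among the genes farthest apart. Of 12 Hox genes, 3 were higher and 6 lower in treated DKO cells (75% called, against 32.3% of all genes). Hoxc9 was at 10.64, 10.23 and 10.30 in treated WT and at 5.74, 5.41 and 5.45 in treated DKO cells, 29.0-fold lower (-4.86 ± 0.13, adjusted p = 6.45e-12). The groups were far apart. Hoxc6 and Hoxc10 were undetected in treated DKO cells, at least 13.1-fold and at least 11.7-fold lower. Hoxd10 and Hoxd13, which pattern the ends of limbs, were undetected in treated WT cells, at least 6.13-fold and at least 3.76-fold higher in treated DKO cells. The untreated differences were -4.86, -4.40, -3.14, 3.24 and 2.09 in the order named.

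Of 39 mesenchymal and lineage factors, 21 were lower and 9 higher, with a median of -0.54 (-0.49 if bounds stand in for undetected members). In all 76.9% were called, against 32.3% of all genes, of which 17.3% were lower and 15% higher. Tbx4, which specifies the hindlimb, was at 8.23, 8.31 and 8.06 in treated WT and undetected in treated DKO cells (4.64, 4.88 and 4.48), at least 9.52-fold lower. The limb factors Shox2 and Meis2 were at least 8.50-fold and 11.7-fold lower. Gata3 was at 5.22, 5.33 and 4.60 against 8.55, 8.18 and 8.07, 9.29-fold higher (adjusted p = 6.85e-09), and the homeobox gene Irx2 was 9.45-fold higher. The groups of Tbx4 and Gata3 did not overlap. Tfap2a, a factor of skin and neural crest, was at 9.24, 9.41 and 9.16 in treated WT and at 5.39, 5.11 and 4.98 in treated DKO cells, 17.3-fold lower. The groups were far apart, and the response to IFNβ was 1.18 in WT and -0.11 in DKO cells, a called change of -1.29 (adjusted p = 0.00203). Foxq1, a forkhead factor, was at least 2.04-fold lower after IFNβ, with an untreated difference of -3.09, and the change of 1.48 was called (adjusted p = 0.00137) with a response of -1.51 in WT and -0.03 in DKO cells.

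**Figure D4:**
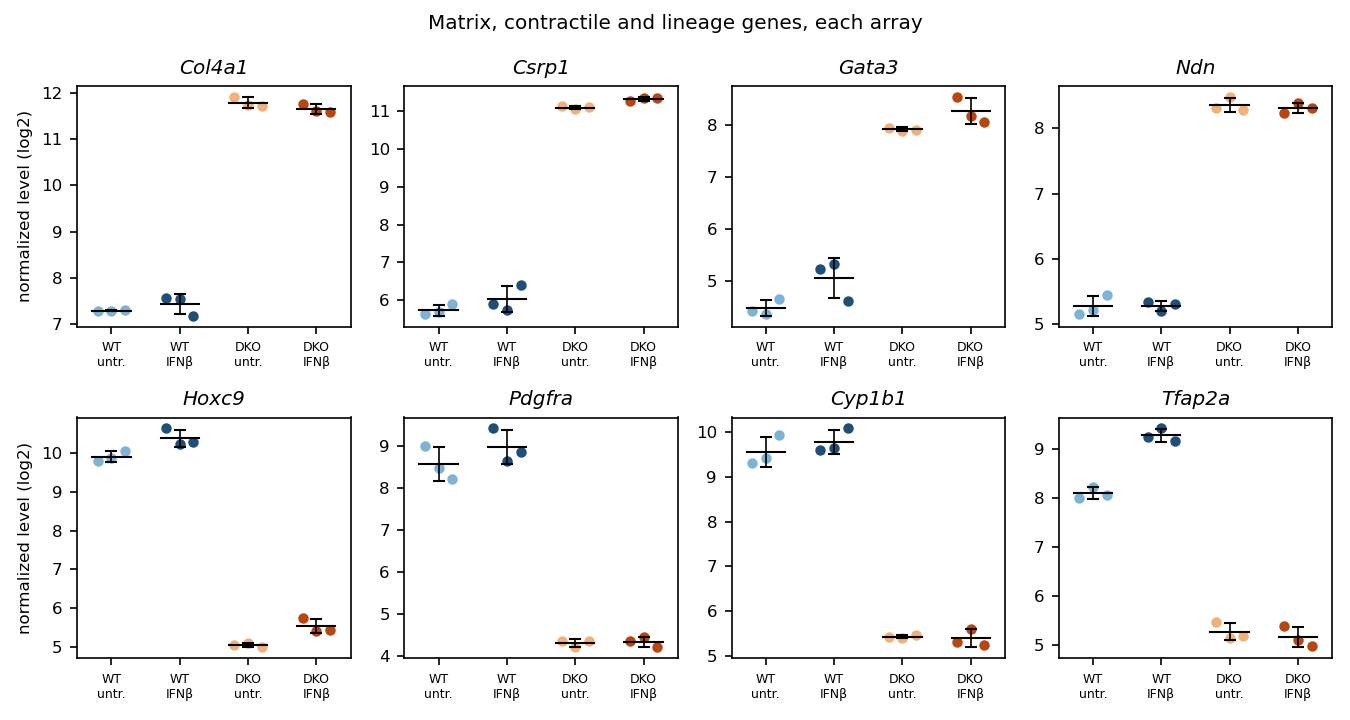
Normalized log2 levels of 8 matrix, contractile and lineage genes on each of 12 arrays, with 3 points, the mean and the SD for each group of untreated (untr.) and IFNβ-treated WT and DKO cells. Col4a1, Csrp1, Gata3 and Ndn are high on all DKO arrays, and Hoxc9, Pdgfra, Cyp1b1 and Tfap2a on all WT arrays, with or without IFNβ.

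Of 15 imprinted genes, which are read from 1 parental copy, 6 were higher and 3 lower (60% called, against 32.3% of all genes). Ndn, necdin, was at 5.34, 5.20 and 5.31 in treated WT and at 8.23, 8.39 and 8.31 in treated DKO cells, 8.16-fold higher (3.03 ± 0.11, adjusted p = 9.7e-11). Snurf, from the same region of chromosome 7, was undetected in treated WT cells and at least 7.89-fold higher. Cdkn1c, a cell-cycle inhibitor of the same chromosome, was at 7.68, 7.67 and 7.57 against 10.77, 10.42 and 10.38, 7.37-fold higher. None of these genes' groups overlapped. Dlk1, a membrane protein encoded on chromosome 12, was 3.53-fold lower, with a smaller difference of -0.76 at a second probe. The untreated differences were 3.08 for Ndn, 3.45 for Snurf, 2.82 for Cdkn1c and -1.76 for Dlk1.

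Fibroblast markers leaned towards lower in treated DKO cells. Of 17 compared, 9 were lower and 3 higher, with a median of -0.41. In all 70.6% were called, against 32.3% of all genes, of which 17.3% were lower and 15% higher. The summed level of the markers ranged from 14.45 to 14.49 on the WT and from 14.24 to 14.29 on the DKO arrays. The surface marker Thy1 was at 7.46, 7.40 and 7.11 against 6.03, 5.84 and 5.84, 2.67-fold lower. The groups did not overlap. The matrix proteoglycan decorin (Dcn) was at least 2.56-fold and the factor Twist1 1.96-fold lower. S100a4, a calcium-binding protein, was 2.82-fold higher, a call lost on leaving out 1 array (adjusted p = 0.0508 without WT replicate 2). Of 15 leukocyte markers 13 were undetected in both treated groups, Ptprc and Adgre1 among them, with summed levels of 8.51 to 8.56 in WT and 8.66 to 8.8 in DKO cells. Of 14 epithelial markers 9 were undetected in both, Epcam and Krt8 among them, with summed levels of 8.17 to 8.3 in WT and 8.97 to 9.06 in DKO cells. The keratins Krt19 and Krt7, detected in treated DKO but not in treated WT cells, were at least 6.07-fold and at least 1.61-fold higher. Of 14 endothelial markers 8 were undetected in both groups, Pecam1 and Cdh5 among them, with summed levels of 9.09 to 9.19 and 9.35 to 9.54. The part of these marker differences in the other results was not tested.

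Genes of other functions were also far apart. Klra4, of the Ly49 receptor family of natural killer cells and uncertain for its near-identical copies, was at 9.52, 9.70 and 9.45 in treated WT and undetected in treated DKO cells, at least 24.4-fold lower. Cyp1b1, a cytochrome P450 of steroid and xenobiotic metabolism, was at 9.59, 9.64 and 10.08 against 5.32, 5.61 and 5.24, 20.9-fold lower. The groups of both were far apart. Pdlim4, an actin-associated protein, was at least 31.0-fold lower, but a second probe gave a difference of -0.42. The gap-junction protein Gjb2 was 7.70-fold and the membrane glycoprotein Emb 8.43-fold lower. Ccn5, a matricellular protein, was 10.8-fold, Lrba, a protein of vesicle traffic, 8.44-fold and Hey1, a transcription factor that Notch induces, 6.59-fold lower. The sialyltransferase St6gal1 was 8.96-fold and the adhesion molecule Mcam 7.24-fold higher. Gpnmb, a transmembrane glycoprotein, was 6.35-fold higher, with a smaller difference of 1.13 at a second probe. Galnt18, of the family that starts O-linked glycosylation, was undetected in treated WT cells and at least 7.51-fold higher, and Ccdc68, a coiled-coil protein undetected in treated WT cells, was at least 9.97-fold higher. The change of 0.79 for Ccdc68 was lost on leaving out 1 array (adjusted p = 0.0701 without WT replicate 1). Lpl, the lipase that frees fatty acids from lipoproteins, was at 6.58, 6.57 and 6.30 in treated WT cells and at least 2.90-fold lower in treated DKO cells, with a called change of -1.01 (adjusted p = 0.00681).

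Of 35 genes of the ULK complex and autophagy machinery, 4 were higher and 5 lower, the targets Ulk1 and Ulk2 included, and 26 did not pass, so 25.7% passed, below the 32.3% of all genes. Under median scaling 1 was higher and 8 were lower. Atg3, the enzyme that attaches LC3 to lipid, was at 7.06, 7.08 and 7.60 in treated WT and at 4.75, 5.34 and 5.34 in treated DKO cells, 4.31-fold lower (-2.11 ± 0.19, adjusted p = 1.06e-06). The DKO arrays all lay below the WT arrays, and the untreated difference was -2.07. Map1lc3a, an LC3 protein, was 1.80-fold higher, but a second probe gave 0.09 and did not pass. Of 38 lysosomal genes, 7 were higher and 7 lower (36.8% called, near the share of all genes). The cathepsins went both ways, with Ctsc at least 5.13-fold and Ctsh 2.98-fold lower and Ctsk 3.44-fold higher. Other Ctsc probes gave smaller differences of -0.796 and -1.715. Cln3, a lysosomal membrane protein, was 3.40-fold higher.

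Of 31 genes of ER stress and the ATF4 response, which adapts cells to misfolded protein and scarce amino acids, 11 were higher and 2 lower. Their median was 0.21, and 41.9% were called, against 32.3% of all genes. The factor Atf5 was at 9.69, 9.27 and 9.78 in treated WT and at 10.35, 10.61 and 10.14 in treated DKO cells (0.78 ± 0.14, adjusted p = 0.000752), and the groups did not overlap. The pseudokinase Trib3 was 1.77-fold higher and the chaperone Dnajc3 1.74-fold lower. Of 23 p53 targets and CDK inhibitors, 8 were higher and 2 lower (43.5% called, against 32.3% of all genes). Under median scaling 4 were higher. Cdkn2b, an inhibitor of CDK4 and CDK6, was 2.98-fold higher. Cdkn1a, the inhibitor p21, was higher by 0.75, a call lost on leaving out 1 array (adjusted p up to 0.14 without DKO replicate 1).

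Of 47 cell cycle genes, 5 were higher and 9 lower. The share called in the cell cycle list, 29.8%, was near the 32.3% of all genes, and those in the NRF2, glycolysis, sterol and death lists of this paragraph were 37%, 36.4%, 27.3% and 41.2%. Cyclin D1 (Ccnd1), which starts the cycle, was at 10.77, 10.90 and 10.78 against 11.64, 11.89 and 11.93, 2.01-fold higher. Its groups did not overlap. Of 27 NRF2 targets, 3 were higher, the glutathione transferase Gstm2 (3.17-fold) among them, and 7 lower, including Nqo1, a quinone reductase (at least 1.22-fold). Of 22 glycolysis and hypoxia genes, 3 were higher, among them the peptide hormone Adm (3.26-fold) and the glucose transporter Slc2a1 (1.77-fold), and 5 lower. Of 22 sterol and lipid genes, 3 were higher and 3 lower, and the sterol sensor Insig1 was 2.48-fold higher. Of 17 death effectors, 4 were higher and 3 lower. The survival protein Bcl2l1 was 1.99-fold higher and the pore-forming Gsdme 2.87-fold lower, while probes of Casp4, an inflammatory caspase, gave opposite calls (0.49 and -2.29), so no direction is given for it.

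The differences were not spread evenly over the chromosomes. The median difference was -0.23 over 555 genes of chromosome 5, -0.18 over 687 of chromosome 11 and -0.20 over 266 of chromosome 12, and it was 0.19 over 593 of chromosome 7. The other 15 autosomes lay between -0.07 and 0.08, and these 4 were singled out after their medians were seen, as those beyond 0.1 in either direction. On chromosome 5, 48 genes were higher in treated DKO cells and 195 lower, on chromosome 11 46 and 186, on chromosome 12 18 and 87, and on chromosome 7 167 and 36. Chromosomes 5, 11 and 12 together held 1508 of the genes compared and 468 of the 1394 lower ones (33.6%). On the other 15 autosomes 930 of 5947 genes were higher and 890 lower, 30.6% in all. The untreated arrays gave medians of -0.24, -0.19 and -0.21 for chromosomes 5, 11 and 12 and of 0.18 for chromosome 7, and the median change with IFNβ lay between 0.01 and 0.03 on all 4.

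Along each of these chromosomes the shift was broad. With genes divided into 6 stretches by order, all 6 of chromosome 7 had medians above 0 (0.11 to 0.23), and all 6 of chromosome 11 (-0.21 to -0.14) and of chromosome 12 (-0.34 to -0.02) lay below 0. On chromosome 5, 5 of 6 stretches lay below 0 and 1 was at 0.08. The median deviation of each treated array from the gene means was between -0.123 and -0.082 on chromosome 7 in WT and between 0.082 and 0.117 in DKO cells. On chromosome 5 it was between 0.07 and 0.127 in WT and between -0.138 and -0.064 in DKO cells. Such array medians did not overlap between the genotypes for 10 of 19 autosomes, the shifted 4 among them.

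When each chromosome was centred on every array, an alternative chosen after seeing the data, 2409 genes passed, 1232 higher and 1177 lower, and the difference changed with IFNβ for 96. Of the 136 interferon-list genes, 29 lie on chromosomes 5, 11 or 12, with 5 higher and 9 lower, and 11 on chromosome 7, with 5 higher and 6 that did not pass. The other 96 had 10 higher and 21 lower members. The cause of the chromosome shifts was not tested, and genotype, sex and culture cannot be told apart in them.

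**Figure D5:**
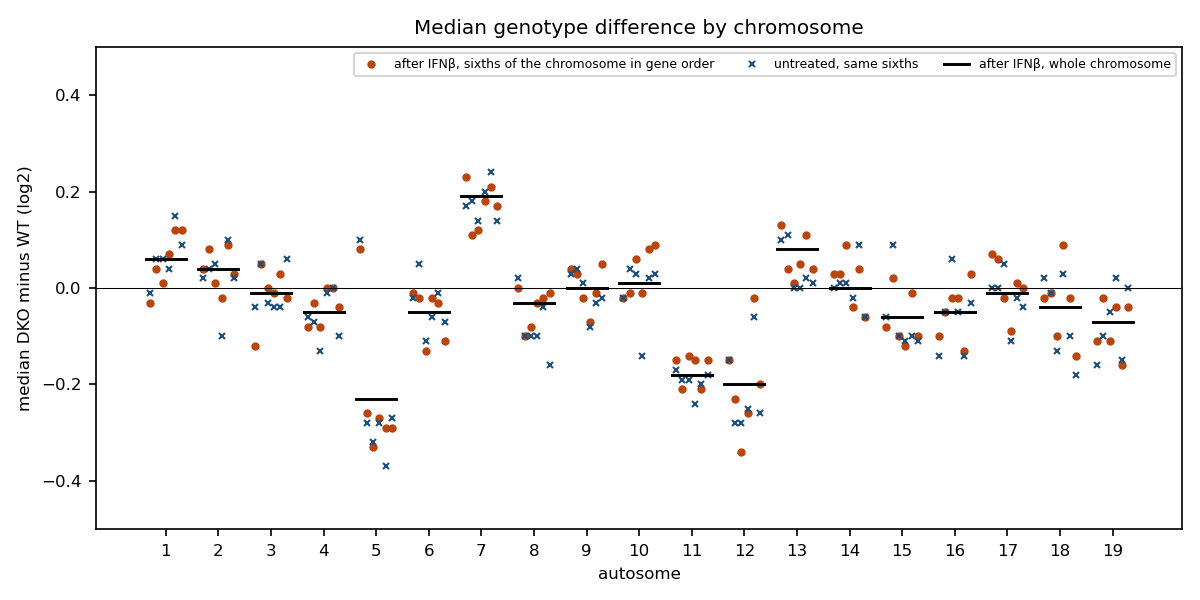
Median DKO minus WT difference (log2) for each autosome, with black bars for whole chromosomes after IFNβ, orange points for 6 stretches of each chromosome in gene order after IFNβ and blue crosses for the same stretches in untreated cells. Chromosomes 5, 11 and 12 lie mostly below 0 and chromosome 7 above, with or without IFNβ.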

How the data were processed

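Per the labels' protocols, biotin-labelled cRNA from total RNA was hybridised to Illumina mouse bead arrays. The deposited intensity of each probe is linear and not normalized, and its deposited detection p-value compares it with negative controls. The authors' deposited log2 table, set against these intensities, holds quantile-normalized values without background subtraction and served as an alternative. Other software and the genome build are not given in the sources used here. The annotation pairs 34885 of 45281 probes with a single gene, which were used, 18 with several genes and 10378 with no gene. Log2 levels were computed from the deposited intensities with neqc (offset 16, quantile normalization), and 4 group means over 12 arrays were fitted with limma 3.58.1 in R 4.3.3. Probes kept were those detected (p under 0.01) on 3 or more arrays, and the brightest probe stood for a gene. The code was tested on simulated data. Other normalizations, filters, blocks and the omission of single treated arrays were tried.

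The members and gene lists were chosen with earlier results of these data known. The genes described were drawn from a list of, among called genes, the 10 largest higher and 10 largest lower that were detected on all arrays of both treated groups, the 5 largest bounds in each direction, Ulk1 and Ulk2, up to 5 members of each list (the 2 with the smallest p where none was called), and the 6 largest called changes with IFNβ in each direction. Predicted and unnamed transcripts were skipped. This gave 197 genes, and not every list member among them is described. Among 123 comparisons with other probes of 82 named genes, 78 gave a like result, 25 did not pass, 13 were less than 50% as large, 3 were called the opposite way, and 4 belonged to a gene whose own probe did not pass. Deviations of same-numbered treated and untreated arrays of 1 genotype correlated at 0.34 to 0.64. These pairs also share a background set, but differently numbered treated and untreated arrays of a genotype and set correlated less (0.06 to 0.25). Same-numbered treated arrays of the 2 genotypes correlated at 0.36, -0.38 and 0.43. The pair at -0.38 lay in different sets, and differently numbered pairs that shared a set reached 0.39 and 0.43. The numbers therefore pair arrays within a genotype, while across genotypes number and set cannot be told apart.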

Additional observations from a re-analysis of the deposited data

Results flagged for a closer look

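The DKO minus WT difference itself differed between IFNβ-treated and untreated cells for 87 of 8048 autosomal genes, by limma's test of that change, and the named genes among them are given here as the treated difference less the untreated one, on the log2 scale. Interferon-list genes that changed towards lower in DKO cells were Oasl2 at -2.87, Ifit3 at -2.65, Rsad2 at -2.63, Usp18 at -2.26, Cmpk2 at -2.25 and Oasl1 at -2.21. Smaller changes of this kind were those of Igtp at -2.01, Oas1g at -1.78, Ifi47 at -1.73, Lgals9 at -1.46, Gvin1 at -1.12 and Trim30a at -0.75. The other changes towards lower were Gch1 at -2.38, Cxcl9 at -2.19, Ccl2 at -1.55, Ccl7 at -1.39, Tfap2a at -1.29, Nfkbia at -1.05 and Lpl at -1.01. Changes towards higher were Ifi205 at 3.92, Ifi211 at 2.55, Ifi213 at 1.96, Ifi207 at 1.41, Sp100 at 1.49, Egr2 at 1.54, Foxq1 at 1.48, Klf2 at 1.28 and Ccdc68 at 0.79. With 1 treated array left out, the calls of Ccdc68, Ccl2, Gvin1, Igtp and Trim30a were lost, with adjusted p up to 0.0701 without WT replicate 1, 0.0653 without WT replicate 1, 0.0772 without DKO replicate 3, 0.069 without WT replicate 1 and 0.133 without DKO replicate 3. The change of Trim30a turned to 0.31 in the authors' deposited table and without background correction, where those of Lgals9 (adjusted p = 0.0781) and Gvin1 (0.0878) did not pass. Sizes depended on the background correction too. In the authors' table the changes of Rsad2, Cmpk2, Oasl1 and Ifi211 were -1.58, -1.09, -0.82 and 1.25, while those of Usp18 and Gch1 were -2.08 and -2.11. Under median scaling the changes of Ccl2 (adjusted p = 0.123), Nfkbia (0.0695), Gvin1 (0.184) and Trim30a (0.106) did not pass. At other probes the change of Oasl1 was -1.51, which passed, and -0.055, which did not. The other Oas1g probes (-0.24, -1.50 and -0.24) did not pass. Other probes of Gvin1 (0.076), Nfkbia (-0.66), Ccl7 (-1.10) and Gch1 (-0.94) did not pass either, while those of Lgals9 (-1.09) and Tfap2a (-1.09) did. The largest changes have different forms. Oasl2, Rsad2 and Ifit3 started higher in untreated DKO cells and did not pass after IFNβ, although Rsad2 and Ifit3 passed as lower when the treated arrays were fitted alone (adjusted p = 0.0345 and 0.0173). Ifi205 and Ifi211 rose with IFNβ in DKO cells and were undetected on all WT arrays, so the sizes of their changes are not exact.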

How the results depend on the processing

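The count of 2603 genes that differed after IFNβ lay between 1513 (lower background set alone) and 3305 (background set as a block) over the alternatives. The untreated count of 2745 was 1458 in the lower set alone. The 545 genes at least 2-fold apart became 202 without background correction and in the authors' deposited log2 table, 303 with an offset of 50 and 310 when detection on all 6 treated arrays was required, and these settings shrink differences of dim probes or drop dim genes by construction. The 87 genes whose difference changed with IFNβ became 146 with the replicate block, 291 with the random block within a genotype (consensus correlation 0.43), 191 when the fit was blocked by background set, and 27 and 54 in the lower and higher set alone, which hold fewer arrays. The replicate block gave 3098 treated calls. Leaving out each treated array gave 2100 to 2450 treated calls, 531 to 564 at least 2-fold, 65 to 82 changes and 2618 to 2803 untreated calls.

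Of 191 called named genes, 155 kept their call under every alternative that gave them a value (detection on all 6 treated arrays left 141 of the 197 named genes). All 191 kept their sign in both background sets. The sets divide the same arrays on which these genes were called, so the kept sign is not independent support. The mean over probes reversed Casp4 (-0.90) and H2-T10 (0.75). The change of Trim30a turned to 0.31 without background correction and in the authors' table and to 0.085 with an offset of 50. The cause was not tested. Treated calls of 16 named genes were lost without at least 1 treated array. Folds against a group with no detected array are bounds, and log2 values of such genes are not exact.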
